A study of Homo sapiens and Mus musculus with 12 samples.

Results

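The genes described here are 9 markers of B cells, Cd79a, Cd79b, Cd22, Blnk, Ms4a1, Fcer2a, Ly6d, Pax5 and Ebf1, read in RNA-seq libraries of NK cells sorted from mouse spleen. They were taken by symbol from a table of 22021 genes, all 9 were found in it, and all 9 passed the filter on low counts. The mouse libraries were 3 WT (Ehmt2 flox/flox mice, which carry the floxed alleles without Cre) and 3 KO (Ehmt2 flox/flox; Ncr1-iCre mice). All mice were age- and sex-matched adults on a pure C57BL/6J background. Ncr1 encodes the NK cell receptor NKp46, so Cre is driven in NK cells and in the few other innate lymphoid cells that use this gene, which B cells do not. Ehmt2 encodes a histone methyltransferase that writes H3K9me2, a repressive mark. The titles and the study name the KO samples as Ehmt2 knockouts, whereas their genotype label reads Ezh2-KO. The gate used to sort the cells for these libraries is not given in the sources used here. Human counterparts of the markers were read in the human NK cell line NK92MI, treated with the EHMT2 inhibitor BIX-01294 or with DMSO, 3 libraries each.

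B cells carry an antigen receptor made of a membrane immunoglobulin and a signalling pair, CD79A and CD79B. When antigen binds, the kinases LYN and SYK phosphorylate this pair, and the adaptor BLNK links SYK to BTK and phospholipase C. CD22 is an inhibitory co-receptor. CD20 (Ms4a1) and CD23 (Fcer2a, the low-affinity IgE receptor) lie on the surface of mature B cells, and the transcription factors EBF1 and PAX5 set and hold the B cell programme. Ly6d encodes a GPI-anchored surface protein that marks lymphoid progenitors committed to the B lineage, and it is also found in cells of the plasmacytoid dendritic lineage. The spleen is rich in B cells, and these genes are not part of the known NK cell programme, so their reads in an NK sort are taken here as a measure of RNA from other cells. RNA of these genes made by the NK cells themselves was not told apart from it. In bulk RNA, fewer cells of a type and less RNA per cell cannot be told apart.

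The libraries held between 25891680 and 37438868 counts (WT replicate 2 the fewest), and 13189 genes were tested. Ehmt2 itself stood at 275, 284 and 285 CPM (counts scaled to the library total, after TMM normalization) in WT replicates 1 to 3 and at 171, 143 and 137 in KO replicates 1 to 3. It was lower in KO by edgeR's quasi-likelihood test (log2 fold change -0.91, SE 0.10, adjusted p = 0.0162), with every KO library under every WT library and KO replicate 1 the highest of the KO libraries. The labels do not say that replicates came from separate animals, so p-values measure the spread between these samples, which may be technical.

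All 9 B cell markers had a lower mean in KO, with log2 fold changes from -2.55 (Fcer2a) to -1.15 (Cd22) and a median of -2.18, beside a median of 0.01 over all genes tested. The 3 KO libraries were far from alike: KO replicate 1 held these RNAs at 42.8% to 64.2% of the WT mean, near WT replicate 2, whereas KO replicates 2 and 3 held 6 of the 9 at 1.75% to 9.30% of it. With this spread, 1 of the 9 genes, Blnk, fell by the rule used here (edgeR, adjusted p under 0.05 with a log2 fold change beyond 0.5), and this rule called 6.69% of all tested genes lower and 2.82% higher. At an unadjusted p under 0.05, 8 of the 9 passed, against 20% of all genes. In 8 of the 9, every KO library lay under every WT library, a pattern found in 19.3% of all genes.

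**Figure D1:**
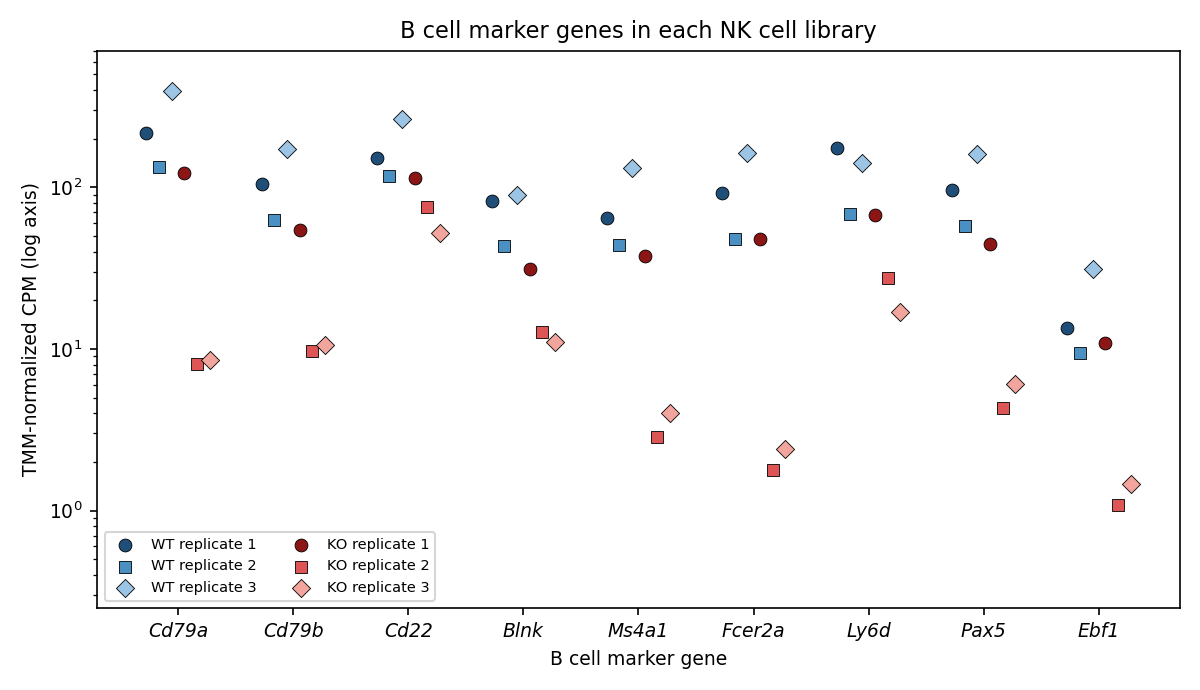
TMM-normalized CPM (log axis) of the 9 B cell marker genes in each of the 6 NK cell libraries, 1 point per library, blue for WT and red for KO. KO replicate 1 lies nearer to WT replicate 2 than to the other KO libraries for every gene, though clearly under it for Blnk. KO replicates 2 and 3 lie lowest, most widely apart from the rest for Fcer2a, Cd79a and Ms4a1.

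Of the receptor complex, Cd79a (chromosome 7, 24897381 to 24902197, plus strand, GRCm38) was read at 217, 134 and 397 CPM in WT replicates 1, 2 and 3. In KO replicates 1, 2 and 3 it was read at 122, 8.03 and 8.53 CPM. KO replicate 1 was thus just under the lowest WT library and 15.2 times KO replicate 2. The log2 fold change was -2.44 (SE 1.03), which edgeR did not call (adjusted p = 0.136).

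Its partner Cd79b (chromosome 11, 106311341 to 106314762, minus strand) followed the same order with a narrower range. It stood at 104, 62.9 and 172 CPM in WT and at 54.6, 9.78 and 10.5 CPM in KO. KO replicates 2 and 3 kept 8.64% and 9.30% of the WT mean of Cd79b, against 3.22% and 3.42% for Cd79a. The log2 fold change of Cd79b was -2.18 (SE 0.70, edgeR adjusted p = 0.0730).

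The inhibitory co-receptor gene Cd22 (chromosome 7, 30865402 to 30880342, minus strand) varied least of the 9 within KO, over a 2.20-fold range. It was read at 153, 117 and 265 CPM in WT and at 114, 75.1 and 52.0 CPM in KO. The groups did not overlap, but KO replicate 1 lay within a few CPM of WT replicate 2, and KO replicates 2 and 3 kept 42.1% and 29.2% of the WT mean. Its log2 fold change of -1.15 (SE 0.36) was the smallest of the 9 and was not called (edgeR adjusted p = 0.0683). The annotation places 479 exon bases of Cd22 under an antisense gene, Gm29439, which is not among the genes analysed here. The strand setting of the counting is not given in the sources used here, so reads of the pair cannot be told apart.

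Blnk (chromosome 19, 40928927 to 40994535, minus strand), the adaptor of the signalling step, was the only marker called. It stood at 82.3, 43.4 and 89.1 CPM in WT and at 31.4, 12.7 and 10.97 CPM in KO. The highest KO library was clearly under the lowest WT library, and the KO values spread over a 2.86-fold range. Blnk fell by 1.97 on the log2 scale (SE 0.44, edgeR adjusted p = 0.0402). The adjusted p was between 0.0971 and 0.154 when WT replicate 1, WT replicate 3, KO replicate 2 or KO replicate 3 was left out, while the log2 fold change stayed between -1.85 and -1.70. At most 0.48% of all genes were called lower in those fits.

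Of the surface proteins, Ms4a1 (chromosome 19, 11249675 to 11266241, minus strand) was read at 64.4, 43.8 and 132 CPM in WT and at 37.3, 2.86 and 4.03 CPM in KO. Fcer2a (chromosome 8, 3681737 to 3694175, minus strand) was read at 92.2, 48.1 and 164 CPM in WT and at 47.7, 1.78 and 2.41 CPM in KO. Both had WT replicate 2 and KO replicate 1 side by side and the other KO libraries far under them. For Fcer2a, KO replicate 1 was 26.8 times KO replicate 2, the widest gap of the 9 genes, and its WT libraries spread 3.41-fold. The log2 fold changes were -2.44 for Ms4a1 (SE 0.94, edgeR adjusted p = 0.109) and -2.55 for Fcer2a (SE 1.15, adjusted p = 0.152), so the largest of the 9 fold changes had the largest error.

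Ly6d (chromosome 15, 74762056 to 74763620, minus strand) differed in which WT library was highest. It was read at 176, 68.2 and 142 CPM in WT and at 67.0, 27.6 and 16.9 CPM in KO. Its highest level was in WT replicate 1, whereas the other 8 markers were highest in WT replicate 3, and KO replicate 1 again sat next to WT replicate 2. The log2 fold change of Ly6d was -1.79 (SE 0.53, edgeR adjusted p = 0.0612).

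Of the transcription factors, Pax5 (chromosome 4, 44524757 to 44710487, minus strand) stood at 96.7, 57.4 and 160 CPM in WT and at 44.8, 4.34 and 6.09 CPM in KO. Ebf1 (chromosome 11, 44617317 to 45008091, plus strand) stood at 13.5, 9.46 and 31.3 CPM in WT and at 10.8, 1.08 and 1.45 CPM in KO. Ebf1 was the only marker whose groups overlapped, since KO replicate 1 lay above WT replicate 2. The log2 fold change was -2.51 for Pax5 (SE 0.86, edgeR adjusted p = 0.0846) and -2.03 for Ebf1 (SE 0.86, adjusted p = 0.135). Ebf1 in KO replicate 2 had the fewest reads of any marker in any library, 40, with an exact 95% Poisson interval of 28.6 to 54.5 for counting error only, so none of the 9 was near 0 at this depth. Pax5 shares 125 exon bases with Gm12462 and 636 with 5730488B01Rik, both on the other strand and not analysed here.

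Gene by gene over the 6 libraries, a two-sided exact permutation test on log2 CPM gave p = 0.1 for the 8 markers whose groups did not overlap. This is the smallest value that 3 against 3 can give, and for Ebf1 the test gave p = 0.2 (n = 3 per group, exact permutation). Per kilobase of exon, the mean level in WT was highest for Ly6d (173 CPM per kb, SD 73.9, n = 3) and Cd79a (171, SD 92.0), followed by Cd79b at 79.1 (SD 38.6). Cd22 (35.3, SD 15.3) and Fcer2a (32.8, SD 18.9) came next on this scale, then Ms4a1 at 13.0 (SD 7.47), Blnk at 11.9 (SD 4.12) and Pax5 at 11.8 (SD 5.85), and Ebf1 was lowest at 1.86 (SD 1.19). Ly6d and Cd79a, Cd22 and Fcer2a, and Ms4a1, Blnk and Pax5 changed order between the WT libraries, so their order is not resolved.

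**Figure D2:**
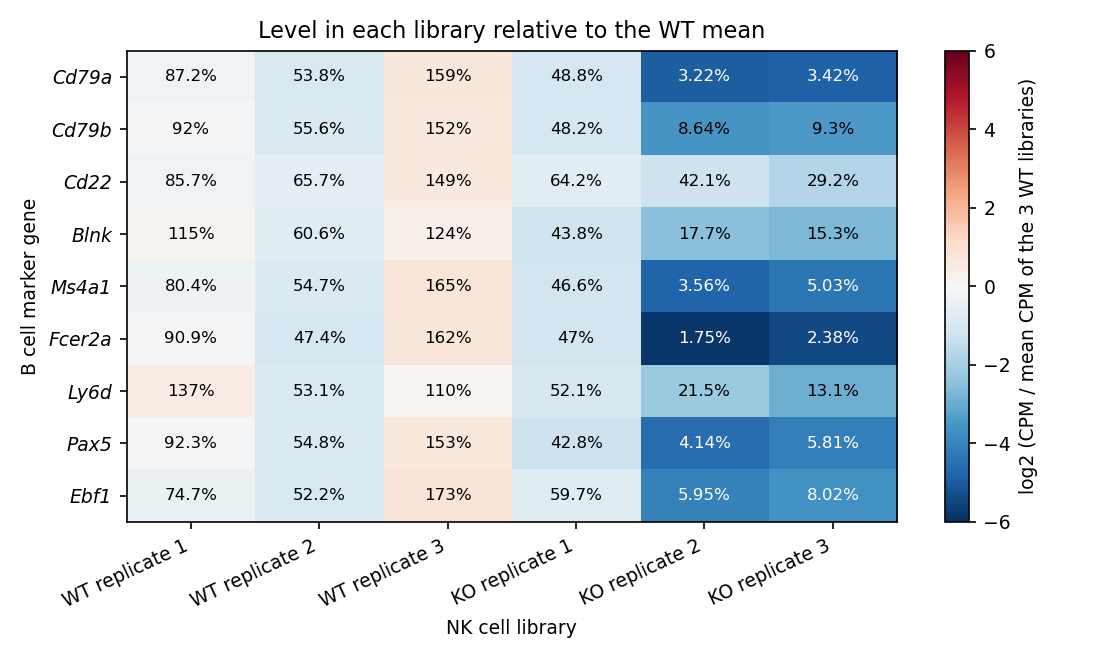
Level of each B cell marker gene in each library as a percentage of the mean of the 3 WT libraries, printed in each cell and coloured by its log2 value. KO replicate 1 lies at 42.8% to 64.2% for all 9 genes, KO replicates 2 and 3 at 1.75% to 42.1%, with Cd22, Ly6d and Blnk the highest there.

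Without KO replicate 1, all 9 markers were called lower by edgeR, with adjusted p between 0.0166 and 0.0418, while 9.1% of all tested genes were. Their median log2 fold change was then -3.85, from -5.60 (Fcer2a) to -1.49 (Cd22). Without WT replicate 2, whose marker level was the lowest of WT, 5 of the 9 were called (Cd79b, Cd22, Ly6d, Pax5 and Blnk), against 13.7% of all genes. Leaving out any other single library left 0 of the 9 called by edgeR, with 3 to 6 of them at an unadjusted p under 0.05. Calls over all genes were lost in the same fits, with 0.48% called lower without WT replicate 1, 0.06% without WT replicate 3 and 0% without KO replicate 2 or 3, so these counts of 0 are not particular to the markers.

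**Figure D3:**
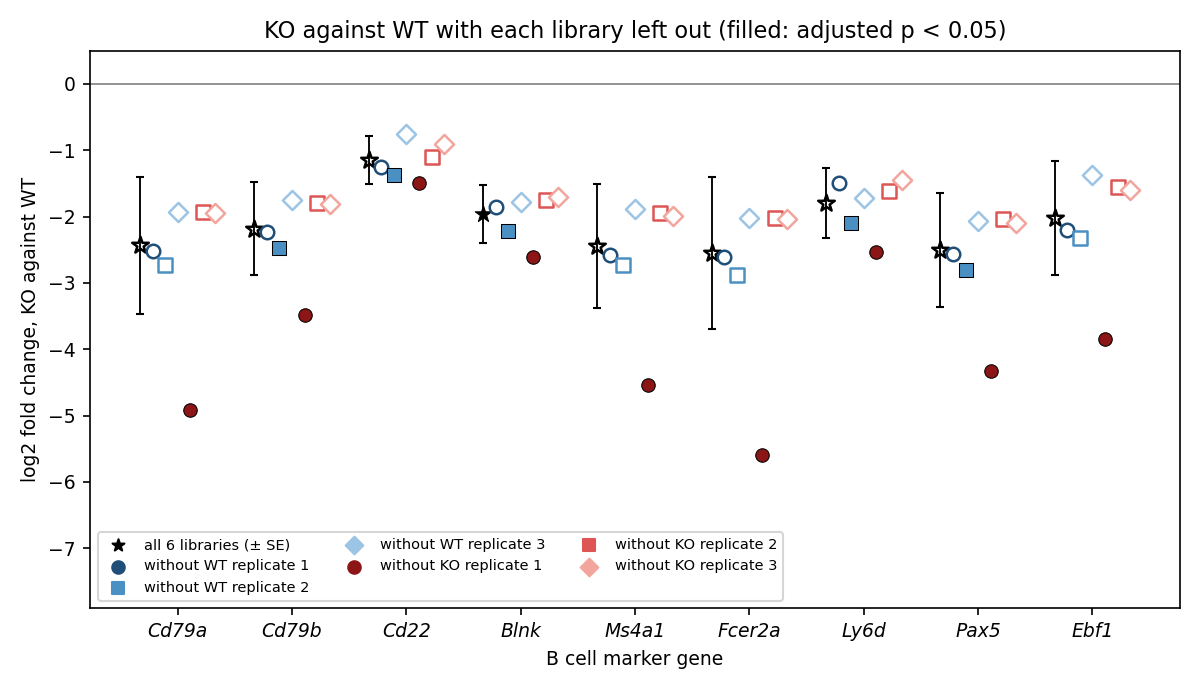
The log2 fold change of KO against WT for each B cell marker, from all 6 libraries (star, bars ± 1 SE) and with each library left out in turn, filled symbols marking an edgeR adjusted p under 0.05. All values are below 0, and the fits without KO replicate 1 lie furthest down and are filled for all 9 genes.

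With all 6 libraries, the other tools called 2 of the 9 (DESeq2, Ly6d and Blnk, against 12.5% of all genes) and 5 of the 9 (limma-voom, Cd79b, Ms4a1, Pax5, Blnk and Fcer2a, against 5.97%). At the adjusted p under 0.01 that the study used, edgeR called 0 of the 9 and 0% of all genes, and the smallest adjusted p of a marker was 0.0402. At this threshold DESeq2 passed Blnk alone (adjusted p = 0.00671), against 8.33% of all genes, and limma-voom passed 0 of the 9 and 0% of all genes, with a smallest adjusted p of a marker of 0.0341.

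Summed over the 9 genes, the B cell marker level was 999, 585 and 1552 CPM in WT replicates 1, 2 and 3 and 530, 143 and 113 CPM in KO replicates 1, 2 and 3. Both groups thus spread widely, WT replicate 3 stood at 2.65 times WT replicate 2, and KO replicate 1 at 3.70 times KO replicate 2. The mean of KO was 0.251 of the mean of WT, 0.123 without KO replicate 1, 0.139 with the libraries scaled to the NK cell genes, and between 0.209 and 0.271 when each marker was left out in turn. A list of 12 NK cell genes ran the other way, with summed levels of 5614, 9534 and 5882 CPM in WT and 10751, 12541 and 12395 CPM in KO. Of these, 7 were called higher by edgeR and none lower, and 0 were called higher with the libraries scaled to their own summed counts, which removes their shared shift by construction. Per 100 CPM of NK cell genes, the B cell markers took 17.8, 6.13 and 26.4 CPM in WT and 4.93, 1.14 and 0.911 CPM in KO, so on this scale too KO replicate 1 was nearest to WT replicate 2. The study reports higher Prf1, Il2rb and Tbx21 mRNA in KO NK cells by RT-qPCR, and these genes are in this list. The ratio and the scaling to this list therefore also carry the rise of its genes in KO, and do not measure other-cell RNA alone.

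The make-up of the B cell marker RNA also differed between libraries. In the 3 WT libraries and KO replicate 1, Cd79a took 21.8%, 23.0%, 25.6% and 23.0% of the summed level, and in KO replicates 2 and 3 it took 5.61% and 7.55%. Cd22 took 15.3%, 20.03% and 17.0% in WT and 21.6% in KO replicate 1, against 52.4% and 46.1% in KO replicates 2 and 3, where it had the highest CPM of the 9. Per kilobase of exon, Ly6d was above Cd22 in both, at 37.1 against 14.9 CPM per kb in KO replicate 2 and 22.7 against 10.3 in KO replicate 3.

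**Figure D4:**
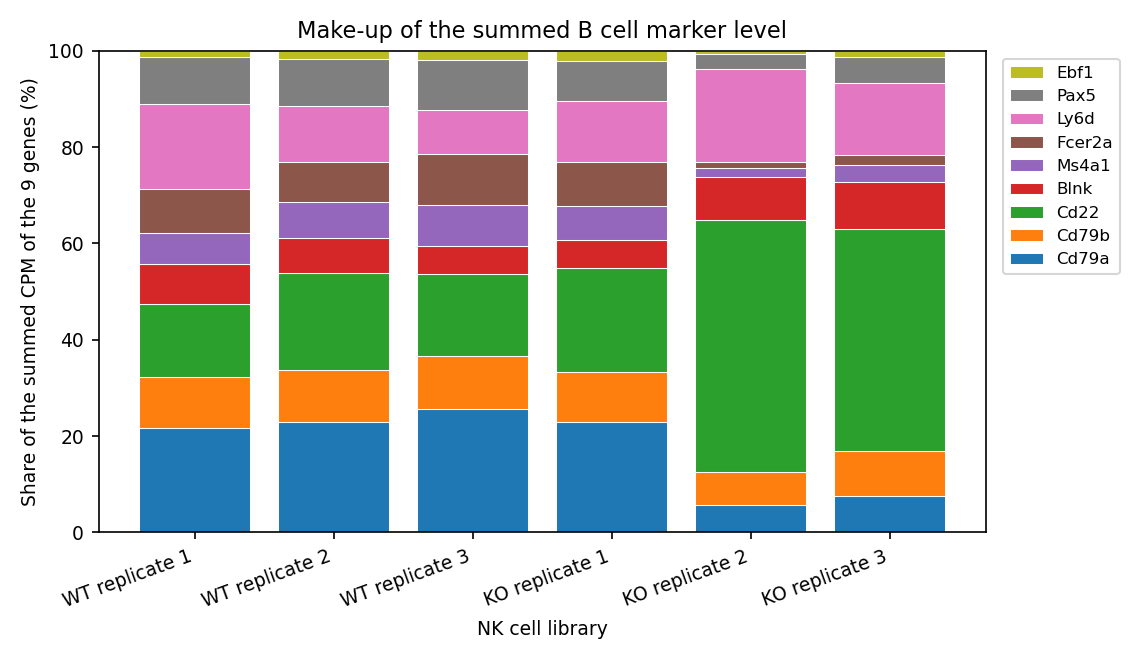
Share of the summed CPM of the 9 B cell marker genes that each gene takes, 1 bar per library from 0 to 100%. The 3 WT libraries and KO replicate 1 have a like make-up, whereas Cd22 takes 52.4% and 46.1% in KO replicates 2 and 3.

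As a ratio to Cd79a, Cd22 stood at 0.667 to 0.872 in WT, 0.938 in KO replicate 1, and 9.35 and 6.10 in KO replicates 2 and 3. The ratio of Ly6d to Cd79a was 0.357 to 0.809 in WT, 0.550 in KO replicate 1, and 3.44 and 1.98 in KO replicates 2 and 3. For Blnk it was 0.225 to 0.379 in WT, 0.257 in KO replicate 1, and 1.58 and 1.29 in KO replicates 2 and 3. For Cd79b it was 0.435 to 0.479 in WT, 0.448 in KO replicate 1, and 1.22 and 1.23 in KO replicates 2 and 3. The ratios of Ms4a1, Pax5 and Ebf1 to Cd79a moved less, and that of Fcer2a was lower in KO replicates 2 and 3 (0.221 and 0.283) than in WT (0.358 to 0.424). The groups did not overlap for the ratios of Cd22 and Ebf1 (two-sided exact permutation p = 0.1, the smallest possible) and overlapped for the other 6 (exact permutation p between 0.2 and 0.4).

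Over the 6 libraries, the log2 level of each marker followed the mean of the other 8 with a Pearson r from 0.931 (Cd22) and 0.946 (Ly6d) up to 0.999 (Cd79b). These points share 6 libraries in 2 genotypes, and r is given as a description. Siglech, a surface receptor of plasmacytoid dendritic cells picked after its values were seen, was read at 327, 153 and 161 CPM in WT and at 103, 99.2 and 56.7 CPM in KO. It was highest in WT replicate 1, as were Ly6d and the summed levels of macrophage and plasma cell genes. Siglech was called lower in KO (log2 fold change -1.30, edgeR adjusted p = 0.0481). After subtracting each genotype's mean, r with Siglech was 0.74 for Ly6d and 0.54 for Blnk, and 0.19 to 0.31 for the other 7 markers. Without this subtraction, r with Siglech was 0.908 for Ly6d and 0.863 for Blnk. Their r with the mean of the other 8 markers was 0.946 and 0.976. These values set 1 gene against a mean of 8 genes and include the difference between genotypes, so they are not a like comparison. The part of such cells in the levels of Ly6d and Blnk was not tested.

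The 10 genes outside the 9 whose log2 level most resembled the mean pattern of the markers had r between 0.997 and 0.999 over the 6 libraries. Among these were the B cell genes Fcmr (the IgM Fc receptor) and Btla (an inhibitory receptor). Fcmr was read at 108, 61.8 and 213 CPM in WT and at 59.9, 3.93 and 3.29 CPM in KO, so that KO replicate 1 lay just under WT replicate 2. Also among them were S100a9, a calcium-binding protein abundant in neutrophils, with Chil1, Scd1 (a fatty acid desaturase), Chst3 (a chondroitin sulphotransferase), Dna2 (a DNA repair nuclease), Bcl2l14 and 5031414D18Rik. S100a9 was read at 91.9, 30.4 and 367 CPM in WT and at 36.0, 0.485 and 0.603 CPM in KO, with KO replicate 1 just above WT replicate 2. Of the 10, 0 were called lower by edgeR (6.69% of all genes) and 9 had an unadjusted p under 0.05 (20%). DESeq2 called 3 (12.5%) and limma-voom 6 (5.97%). The 10 were selected for this pattern in the same libraries, so their lower level in KO follows from the selection. The pattern was common, and 918 of 11975 genes compared (7.67%) had r above 0.9.

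Other genes of the B lineage were counted from lists by role. Over all tested genes, 48.5% had a lower mean in KO and edgeR called 6.69% lower. Of 10 tested genes of the receptor complex and its co-receptors, 8 had a lower mean in KO and 2 were called lower by edgeR, with a list median of -1.54. The 2 were Cd81, a tetraspanin used by many cell types (log2 fold change -1.55, adjusted p = 0.0380), and Fcrla (-2.12, adjusted p = 0.0412). Fcrla, a Fc receptor-like protein of B cells, was read at 62.0, 37.3 and 75.9 CPM in WT and at 24.4, 9.32 and 6.55 CPM in KO, with no overlap. The immunoglobulin constant region genes of this list were not analysed here.

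Of 13 signalling genes, 10 had a lower mean and 2 were called lower by edgeR, with a list median of -0.23. These were Lyn (log2 fold change -0.67, adjusted p = 0.0345) and Btk (-1.11, adjusted p = 0.0412), kinases that myeloid cells also use. Of 12 further transcription factors, 9 had a lower mean and 3 were called lower by edgeR, Bcl11a (-1.26, adjusted p = 0.0333), Mef2c (-0.61, adjusted p = 0.0431) and Spib (-1.27, adjusted p = 0.0471), with a list median of -0.51. Bcl11a and Spib are also known for their role in plasmacytoid dendritic cells.

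Of 15 surface and antigen presentation genes, 14 had a lower mean and 6 were called lower by edgeR, with a list median of -1.11. Ciita, the master regulator of MHC class II, was read at 270, 214 and 311 CPM in WT and at 168, 99.2 and 102 CPM in KO. It was called lower (log2 fold change -1.10, adjusted p = 0.0350), as were Cd74, the invariant chain of MHC class II (-1.02, adjusted p = 0.0452), Tnfrsf13b, the receptor TACI (-1.11, adjusted p = 0.0452), the activation marker Cd83 (-0.95, adjusted p = 0.0467) and H2-Oa, which modulates peptide loading (-0.93, adjusted p = 0.0473). All 5 had the KO libraries under the WT libraries, and KO replicate 1 was the highest KO library for each. Of the co-receptor, signalling, transcription factor and surface lists, DESeq2 called 4, 4, 6 and 11 genes lower, and limma-voom 3, 2, 4 and 11. Over all genes, these tools called 12.5% and 5.97% lower.

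The smaller lists of B cell stages gave few calls. Of 5 marginal zone B cell genes (list median -0.41), 2 tested precursor genes (list median -0.74) and 6 plasma cell genes (list median -1.75), 0 were called lower by edgeR, while 3, 1 and 4 of them passed an unadjusted p under 0.05. That unadjusted p was passed by 20% of all genes. DESeq2 called 1, 1 and 3 genes of these lists, and limma-voom none. Without KO replicate 1, the calls were 8 of the co-receptor list, 5 of the signalling list, 5 transcription factors and 14 of the surface list. Of all genes, 9.1% were called lower in that fit. Without WT replicate 2, the calls in these 4 lists were 6, 4, 6 and 11, against 13.7% of all genes.

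Summed markers of other cells differed between the libraries too. Summed, 9 T cell genes stood at 118%, 77.5% and 104% of the WT mean in WT and at 106%, 58.7% and 62.6% in KO. The T cell genes were not alike, and those named here were picked after their values were seen. Cd4 had the highest level in WT, at 118, 77.3 and 94.9 CPM, against 67.1, 26.5 and 32.1 CPM in KO. Of the 9, 6 had a lower mean in KO, whereas Cd3d, Cd3g and Cd28 had every KO library above every WT library. The neutrophil genes stood at 66.1%, 26.4% and 207% in WT and at 28.4%, 5.79% and 6.36% in KO, again with KO replicate 1 beside WT replicate 2. Erythroid genes did not set KO replicate 1 apart, at 109%, 72.7% and 118% in WT and 42.7%, 44.0% and 34.3% in KO.

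**Figure D5:**
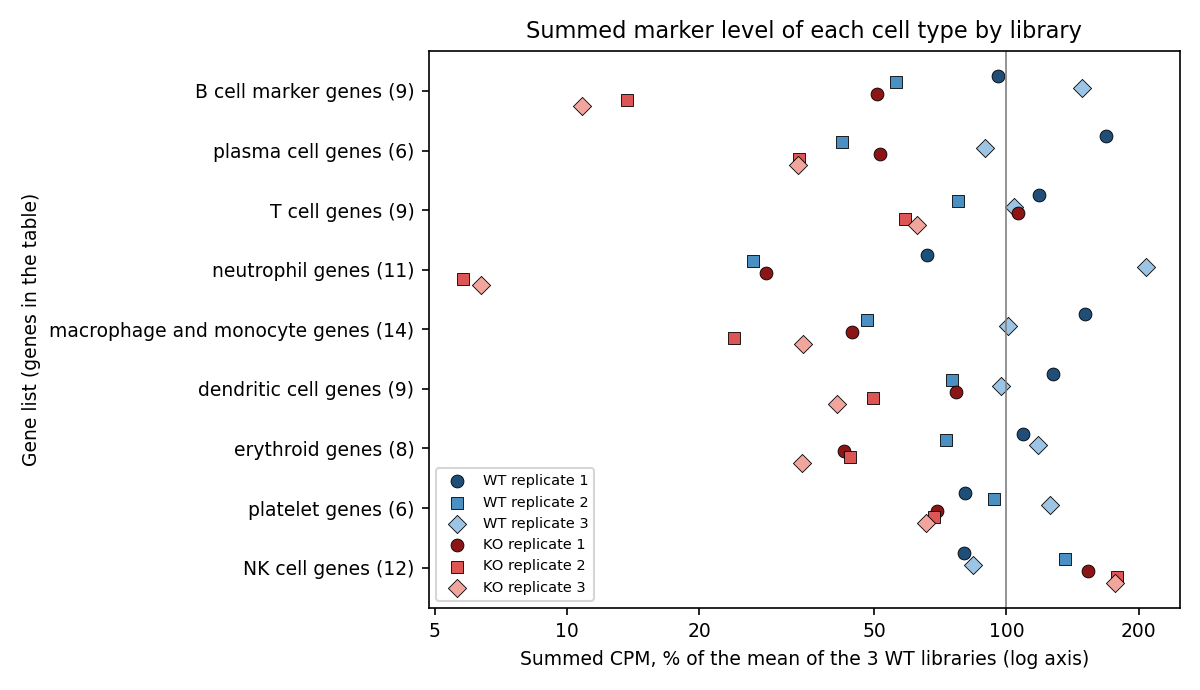
Summed CPM of each marker list in each library as a percentage of the mean of the 3 WT libraries (log axis), 1 point per library, with the number of genes in brackets. KO replicate 1 lies near WT replicate 2 for the B cell, neutrophil, macrophage and dendritic cell genes, at 50.7%, 28.4%, 44.6% and 76.7%. It lies with the other KO libraries for the erythroid and platelet genes, and the NK cell genes lie at 153% to 179% in KO.

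The macrophage genes stood at 151%, 48.0% and 101% in WT and at 44.6%, 24.0% and 34.4% in KO, and the dendritic cell genes at 128%, 75.1% and 97.0% in WT and at 76.7%, 49.7% and 41.2% in KO. By edgeR, the calls of lower genes were 9 of 14 macrophage, 3 of 10 neutrophil, 2 of 9 dendritic and 7 of 8 erythroid genes, against 6.69% of all genes. DESeq2 called 14, 5, 7 and 7 of these, against 12.5% of all genes, and limma-voom 4, 4, 3 and 7, against 5.97%. For the T cell and platelet lists edgeR called 0 lower, with 1 and 6 genes at an unadjusted p under 0.05 (20% of all genes). DESeq2 called 1 and 4 genes of these lists lower, and limma-voom 1 and 0. By edgeR, 2 T cell genes were called higher, against 2.82% of all genes, and 0 were with the libraries scaled to the NK cell genes. That scaling moved the median of all genes to -0.82 and took the higher calls over all genes from 372 to 35. The part of differences in sort purity in the B cell marker levels was not tested, and it cannot be told apart from genotype in these 6 libraries.

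Human counterparts were read in NK92MI, an established human NK cell line grown in culture, treated with the EHMT2 inhibitor BIX-01294 or with its solvent DMSO, 3 libraries each. The labels of these libraries give neither dose nor duration. They were looked up after the values were seen, and 5 of the 9 were analysed (CD79A, MS4A1, PAX5, EBF1 and BLNK). PAX5 was read at 12.1 to 13.6 CPM with DMSO (median 13.2) and at 24.2, 24.3 and 22.1 CPM with BIX-01294, without overlap. It was higher with the inhibitor (log2 fold change 0.86, SE 0.10, edgeR adjusted p = 2.62e-05), as were 7.57% of all tested genes.

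CD79A was read at only 8 to 22 counts with DMSO and 25 to 34 with BIX-01294, that is at 0.468 to 1.28 CPM and at 2.07, 1.47 and 1.95 CPM. The groups did not overlap, and CD79A was called higher (log2 fold change 1.02, SE 0.36, edgeR adjusted p = 0.0399), although 4 of 12 other settings did not call it. EBF1 was read at 4.07 to 5.74 CPM with DMSO and at 5.97, 5.41 and 4.43 CPM with BIX-01294, and the groups overlapped (log2 fold change 0.11, SE 0.19, edgeR adjusted p = 0.688). MS4A1 and BLNK had at most 3 counts in any library and did not pass the filter on low counts.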

How the data were processed

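Polyadenylated RNA of 6 libraries of sorted mouse splenic NK cells (3 WT, 3 KO) and 6 of NK92MI cells was sequenced by the authors from Trizol extracts and NEBNext Ultra libraries. The authors trimmed reads with fastp 0.23.4, aligned them with STAR 2.7.11b to GRCm38 or GRCh38 and counted them with HTSeq 2.0.3. The deposited values are raw counts per gene symbol. The annotation release and strand setting are not given in the sources used here. Samples were grouped by their titles, and the DMSO columns, which could not be tied to single samples, were used as a group.

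Each species was fitted separately in R 4.3.3 with edgeR 4.0.16 (TMM, filterByExpr, quasi-likelihood test, two-sided, Benjamini-Hochberg over all tested genes). Genes were called where the adjusted p was under 0.05 with a log2 fold change beyond 0.5. The study used DESeq2 at 0.01, and DESeq2 1.42.0 and limma-voom (limma 3.58.1) were run as alternatives with other scalings, filters, a block and single libraries left out. Log2 CPM used a prior count of 2. The scripts were tested on simulated data. Symbols listed more than once (41) were kept as separate genes. Positions and exon lengths are from GENCODE vM21 on GRCm38, which may differ from the release counted.

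The genes, the lists and the tests were chosen with earlier results of these data known. Genes named are the 9 markers, Ehmt2, called genes of the B lineage lists (at most 5 of smallest adjusted p per list) and 9 of the 10 of closest pattern with a mean CPM of at least 1, and others are said to have been picked after their values were seen. The values of 1 gene of closest pattern are not reported here. Library totals were 25891680 to 37438868 in mouse and 16579469 to 17165446 in human, and counts of different replicates differed beyond sampling noise.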

Additional observations from a re-analysis of the deposited data

How the results depend on the processing

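The number of B cell markers called lower in KO, 1 by edgeR, was 2 without a filter on low counts, 2 with DESeq2, 5 with limma-voom, 9 with scaling to the NK cell genes and 0 at an adjusted p under 0.01. It was 1 with DESeq2's size factors, with library totals, with a mean CPM of at least 1 and at any fold change. With single libraries left out it ranged from 0 to 9, the median log2 fold change from -3.85 (without KO replicate 1) to -1.78, and the ratio of summed levels from 0.123 (without KO replicate 1) to 0.331. Scaling to the NK cell genes moved the median of all genes to -0.82 and called 66.9% of all genes lower, and the markers' median relative to it was -2.20, as in the TMM fit. With the replicate number as a block, 7 of the 9 were called (all but Cd22 and Ebf1) and 11.9% of all genes, with adjusted p from 0.00672 to 0.0616. The labels do not say whether same-numbered samples were paired. Same-numbered deviations correlated at 0.281, 0.352 and -0.188, and 3 of 6 libraries correlated best with their own number. With so few libraries these values cannot settle whether the samples were paired. Of 126 marker values over 14 alternatives, 90 stayed on their side of the threshold, 32 passed it newly, 4 (all Blnk) lost it and 0 changed sign. Among the human genes, the log2 fold change of EBF1 ranged from -0.010 to 0.24 with single libraries left out. PAX5 was called in 12 of 12 alternatives and CD79A in 8 of 12 (adjusted p from 0.0257 to 0.156), all chosen after seeing the data, as were the counts of list genes without single libraries. The cause of these changes was not tested.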
